A study of Mus musculus with 12 samples.

Results

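Cytosolic ribosomal protein genes were followed in mouse cells labelled as primary cardiac fibroblasts, which make the connective tissue of the heart. Members were taken by symbol: the Rpl, Rps and Rplp names of the large subunit, the small subunit and the ribosomal stalk, with Rpsa. A member also had to average at least 1 CPM (counts scaled to a common library total) over all 12 libraries. Among 24619 genes, 81 had a matching symbol and 80 reached that level, 46 of the large subunit, 31 of the small subunit and 3 of the stalk. The symbol left out for its level was Rpl3l, at 0.28 CPM, and the lowest member was Rpl32l, at 2.31 CPM, followed by Rpl29 at 35.3 CPM. Members were thus chosen by symbol and selected on their mean CPM over all libraries, which is given as a description only; the rule used no comparison between groups. All 80 members passed the filter on low counts and were among the 14400 genes tested.

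Messenger RNA was sequenced in 4 groups of 3 libraries, all from cells grown with 10% serum, starved for 12 h and kept for 24 h in medium conditioned by lentivirus-infected adipocytes. OE_CM cells received the medium of adipocytes that overexpress the human microRNA miR-548ay, and VEC_CM cells that of adipocytes with the vector lentivirus. TGF_KD_CM cells received TGF-beta1, a cytokine that turns fibroblasts to making matrix, with the medium of adipocytes in which miR-548ay was inhibited, and TGF_VEC_CM cells TGF-beta1 with the medium of vector adipocytes. The labels do not say whether libraries with and without TGF-beta1 were prepared together, so a batch and TGF-beta1 cannot be told apart. Groups follow the sample titles, since the treatment labels of replicates 2 and 3 of OE_CM and TGF_KD_CM name other microRNA numbers. The labels do not say that the libraries of a group are separate cultures, so the p-values speak only of the scatter among these libraries, possibly technical.

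The cytosolic ribosome is built from a small subunit, which reads the messenger, and a large subunit, which joins the amino acids, and the stalk of the large subunit recruits the elongation factors. Each subunit needs its proteins in nearly equal numbers, and the genes for them, scattered over the genome, are among the most strongly expressed in growing cells. Their messengers typically begin with a run of pyrimidines at the very start, the TOP sequence (terminal oligopyrimidine), through which mTOR signalling and the protein Larp1 set their translation and stability.

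Windows at the start sites were searched for such runs, as a description of the members. Whether the runs have a part in the comparisons that follow was not tested. Of the 80 members 59 were found in a RefSeq table of promoters (build GRCm38.p6). In a window from 10 bases before to 20 bases after the start that is listed first (a gene can have others), a run of at least 8 pyrimidines stood in 21 of these 59 members (35.6%) and in 11.2% of all 27025 genes of that table; a run of at least 5 stood in 40 members (67.8%) and in 46.4% of all genes. Windows of 6 members that recur below are given, and their longest runs are of 7 to 13 bases. Other members that recur below have shorter ones: 3 bases in Rpl10, Rpl5, Rpl41 and Rpl22, 4 in Rps4x and 2 in Rps3. The windows of the 6 follow, each of 30 bases, 5′ to 3′ on the gene's strand, with runs of at least 5 pyrimidines in capitals.
Rps12, chr10:23787190-23787219, minus strand: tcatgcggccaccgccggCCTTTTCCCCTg
Rps27, chr3:90213629-90213658, minus strand: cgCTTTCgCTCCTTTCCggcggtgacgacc
Rps10, chr17:27635225-27635254, minus strand: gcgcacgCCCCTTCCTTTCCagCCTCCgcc
Rpl18, chr7:45718061-45718090, plus strand: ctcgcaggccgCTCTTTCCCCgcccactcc
Rps6, chr4:86857348-86857377, minus strand: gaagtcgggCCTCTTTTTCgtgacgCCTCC
Rps27l, chr9:66946076-66946105, plus strand: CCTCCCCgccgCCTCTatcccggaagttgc
The letters CTTTCC on the gene's strand, within 50 bases of a listed start, were found in 19 of the 59 members (32.2%) and in 5.43% of all genes. A match describes the letters of the window and no more.

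Upstream of the start, 3 motifs that are known from ribosomal protein promoters and 2 others were searched on both strands, from 250 bases before to 50 bases after every listed start. CCGGAAG, a core bound by ETS factors, stood in 25 of 59 members (42.4%) against 9.93% of all genes. AANATGGC, the core of the YY1 motif, stood in 11 members (18.6%) against 6.96%, and GGGCGG, the core of the SP motif, in 35 (59.3%) against 38.2%. The E box CACGTG, which Myc and other factors bind, stood in 6 members (10.2%) against 8.09%, and TATAAA in 7 (11.9%) against 15.7%. The 250 bases before the start of Rps27 and Rps10, the called members at opposite ends of the difference between the effects of the 2 media described below, are given. Matches to any of the 5 motifs are in capitals: AANATGGC once in Rps27, and GGGCGG at 2 places and CCGGAAG once in Rps10.
Rps27, chr3:90213649-90213898, minus strand: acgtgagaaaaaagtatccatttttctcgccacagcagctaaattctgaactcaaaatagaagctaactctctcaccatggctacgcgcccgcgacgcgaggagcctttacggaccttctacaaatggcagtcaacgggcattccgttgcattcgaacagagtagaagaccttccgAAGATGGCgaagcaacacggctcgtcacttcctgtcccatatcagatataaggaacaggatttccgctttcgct
Rps10, chr17:27635245-27635494, minus strand: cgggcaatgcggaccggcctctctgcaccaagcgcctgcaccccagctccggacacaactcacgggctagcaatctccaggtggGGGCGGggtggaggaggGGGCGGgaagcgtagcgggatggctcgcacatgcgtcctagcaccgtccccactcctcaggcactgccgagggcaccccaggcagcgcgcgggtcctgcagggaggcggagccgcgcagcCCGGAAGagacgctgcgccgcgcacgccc

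Library totals ran from 33379207 to 37226153 counts, and mitochondrial messengers took 1.97% to 2.29% of them. Of the fibroblast markers in the table Col1a1, Col1a2, Col3a1, Pdgfra, Ddr2 and Vim were present, but Dcn, Lum and Thy1 were under 1 CPM in every group, and the summed CPM of the 9 markers ran from 9790 to 10037 in OE_CM, 9467 to 9565 in VEC_CM, 9418 to 9738 in TGF_KD_CM and 8582 to 8667 in TGF_VEC_CM. Of 8 adipocyte markers Adipoq, Lep, Plin1, Cfd and Retn were under 1 CPM in every group, while Fabp4, Plin4 and Cidec were expressed; the sum of the 8 ran from 776 to 818 CPM in OE_CM, 946 to 1009 in VEC_CM, 968 to 985 in TGF_KD_CM and 752 to 823 in TGF_VEC_CM. Of 6 cardiomyocyte markers 4, Myh6, Actn2, Tnni3 and Myl2, were under 1 CPM, and the sum ran from 163 to 167 CPM in OE_CM, 70.1 to 75.2 in VEC_CM, 97.3 to 104 in TGF_KD_CM and 105 to 116 in TGF_VEC_CM. Ryr2 had group means from 1.23 to 1.88 CPM, so nearly all of this sum came from a single marker. Of 8 leukocyte markers Ptprc, Cd3e and Cd79a were under 1 CPM in every group, and the sum of the 8 ran from 16.8 to 29.1 CPM in OE_CM, 35.9 to 38.9 in VEC_CM, 23.3 to 25.7 in TGF_KD_CM and 29.3 to 32.3 in TGF_VEC_CM, lower without overlap in OE_CM than in VEC_CM and in TGF_KD_CM than in TGF_VEC_CM. The sums of endothelial, smooth muscle and Schwann cell markers were under 3 CPM in every library. The part of other cell types in the results was not tested. In TGF_KD_CM the libraries differed more over the members than in the other groups: the chi-square per member was 71.0 between replicates 1 and 2, 28.3 between 1 and 3 and 20.96 between 2 and 3, against at most 15.2 between libraries within OE_CM, VEC_CM or TGF_VEC_CM. Counts are shares of a library: fewer cells of a type and less RNA per cell cannot be told apart in them.

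Levels between members were compared per length, as FPKM (fragments per length of gene and library total). Over all 12 libraries the median member stood at 629 FPKM. Rpl41, the smallest ribosomal protein, led with 2850 FPKM, followed by Rplp0, which anchors the stalk to the ribosome, with 2322 FPKM and Rplp1, one of the paired stalk proteins that hold the elongation factors, with 2230 FPKM. At the low end stood Rpl32l with 3.91 FPKM, Rpl21 with 26.0, Rpl29 with 30.8, Rps27l, a copy of Rps27 that p53 induces, with 44.5, and Rpl22 with 60.2. The median was 593 FPKM in the large subunit and 719.9 FPKM in the small subunit.

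Many members have processed copies elsewhere in the genome, and reads shared with them can be split or lost in counting, so levels of such members are uncertain. Of all stretches of 50 bases in a member's GENCODE transcripts, a median of 37.1% also occurred in transcripts of other genes on either strand, and in 27 members it was over 50%. It was 0 in Rpl39l and reached 95.1% in Rpl35. Such stretches of Rpl21 and Rpl29, low in FPKM, occurred at least 20 times in each of 67 and 59 other genes, summed over the transcripts of a gene. Over the 80 members the shared portion had a Spearman rho of 0.20 with FPKM and of -0.064 with the median coefficient of variation within groups, both over points from the same libraries. The spread was widest in Rpl32l, whose largest within-group coefficient of variation was 51.9%, then Rpl21 (21.6%), Rpl26 (13.5%), Rps27 (12.0%) and Rps18 (11.8%).

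Together the members took 5.65%, 5.51% and 5.60% of all counts in the OE_CM libraries, against 5.30%, 5.32% and 5.34% in VEC_CM. In the TGF-beta1 groups they took 5.17%, 5.45% and 5.38% in TGF_KD_CM, against 4.92%, 4.90% and 4.97% in TGF_VEC_CM. Every OE_CM library was above every VEC_CM library, every TGF_KD_CM library above every TGF_VEC_CM library, and every TGF_VEC_CM library below every VEC_CM library. The mean share was 5.59% ± 0.067 in OE_CM and 5.32% ± 0.025 in VEC_CM, 5.33% ± 0.144 in TGF_KD_CM and 4.93% ± 0.036 in TGF_VEC_CM (SD, n = 3 each). In an exact two-sided permutation test each of the 3 differences (0.265 percentage points for OE_CM over VEC_CM, 0.403 for TGF_KD_CM over TGF_VEC_CM and -0.390 for TGF_VEC_CM over VEC_CM) gave p = 0.1, the smallest p that 3 libraries against 3 allow. TGF_KD_CM replicate 1 lay lowest of its group; without it the difference over TGF_VEC_CM was 0.484 percentage points.

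**Figure D1:**
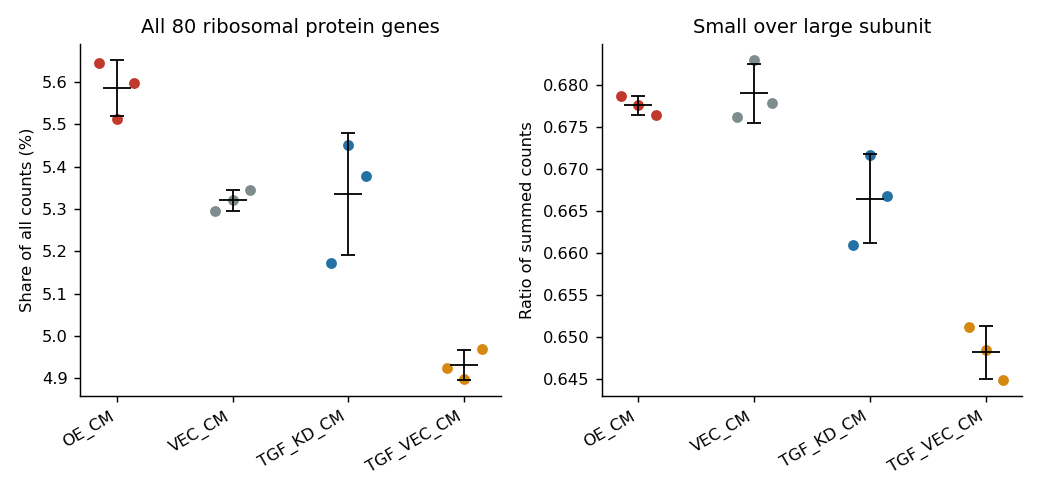
Each point is 1 library, in its group; horizontal marks and bars give the mean and SD of 3 libraries. The left panel shows the percent of all counts taken by the 80 ribosomal protein genes, highest in OE_CM (5.51% to 5.65%) and lowest in TGF_VEC_CM (4.90% to 4.97%), and the right panel the summed counts of the small over those of the large subunit genes. Neither axis starts at 0.

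Medium of adipocytes overexpressing miR-548ay was compared with vector medium. Ribosomal protein genes were higher in OE_CM by a small and even amount: 69 of 80 passed the test as higher, none as lower, and the median log2 fold change was 0.15, a 1.11-fold rise. No member changed as much as 2-fold. In 74 members the OE_CM libraries lay wholly above the VEC_CM libraries, and in none wholly below. Among all 14400 genes 28.4% were called higher and 25.7% lower, 30.4% lay wholly above and 27.9% wholly below; with upper-quartile scaling in place of TMM the shares of all genes were 19.4% higher and 35.1% lower, and of the members 38 were higher and none lower, with a median of 0.059.

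Other strongly expressed genes were also mostly higher. Of 351 other genes at or above the lower quartile of the members (377 CPM), 208 (59.3%) were called higher and 76 (21.7%) lower, with a median log2 fold change of 0.11. The quartiles of the members were 0.12 and 0.18, and those of the 351 genes -0.027 and 0.24. No test of this difference was made, since genes are not replicates.

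Rps27l, the p53-induced copy of the small-subunit protein Rps27, had the largest rise after Rpl21 (chromosome 9, 66944624 to 66949522, NCBI gene 67941). Rps27l had 144, 143 and 153 CPM in OE_CM, against 118, 121 and 114 CPM in VEC_CM. The 3 OE_CM values were all above the 3 VEC_CM values (log2 fold change 0.32 ± 0.034; edgeR adjusted p = 1.54e-12). Rpl18, a protein of the large subunit (chromosome 7, 45715467 to 45720835, NCBI gene 19899), came next. Rpl18 had 633, 646 and 626 CPM in OE_CM, against 535, 542 and 538 CPM in VEC_CM. Its groups did not overlap (log2 fold change 0.24 ± 0.024; edgeR adjusted p = 8.16e-14). Rps3, which lines the entry of the messenger channel and also takes part in DNA repair, and Rpl8, which lies near the peptidyl transferase centre, rose by 0.21 ± 0.024 and 0.21 ± 0.023 on the log2 scale.

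Rpl21 had the largest log2 fold change of the called members, 0.44 ± 0.16, on an uncertain base. Rpl21 had 68.5, 66.6 and 66.2 CPM in OE_CM, against 54.5, 56.7 and 37.2 CPM in VEC_CM. One VEC_CM library was far below the other two, and the call (edgeR adjusted p = 0.0493) was lost in 5 of 6 fits that left out 1 library, with adjusted p from 0.0356 to 0.115. Without VEC_CM replicate 3, the low one, the log2 fold change was 0.28 (adjusted p = 0.0872). Rpl29 rose by 0.22 ± 0.055 (edgeR adjusted p = 0.000383), with 44.2, 40.7 and 37.7 CPM in OE_CM and 36.4, 34.1 and 34.4 CPM in VEC_CM. Rpl21 and Rpl29 both share stretches with transcripts of many other genes.

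Of the stalk genes Rplp0 rose by 0.12 ± 0.020 and Rplp1 by 0.17 ± 0.061 (edgeR adjusted p = 9.62e-07 and 0.0465); the call on Rplp1 was lost in 4 of 6 fits without 1 library, with adjusted p up to 0.148. Rplp2, the partner of Rplp1, had a log2 fold change of 0.11 ± 0.061 that did not pass (adjusted p = 0.158). Rpl5 and Rpl11, which carry the 5S RNA into the ribosome and can hold back the p53 ligase Mdm2, rose by 0.16 ± 0.022 and 0.17 ± 0.032. Rps6, the ribosomal protein that S6 kinase phosphorylates, rose by 0.10 ± 0.022, Rps19, mutated in Diamond-Blackfan anaemia, by 0.10 ± 0.030, Rpl13a, which can also leave the ribosome to silence inflammatory messengers, by 0.13 ± 0.024, Rpl41 by 0.14 ± 0.022 and Rpsa, also known as the precursor of the laminin receptor, by 0.17 ± 0.021. Rps27a, made as a fusion with ubiquitin, rose by 0.13 ± 0.044, a call lost in 4 of 6 fits without 1 library (adjusted p up to 0.0835). Rpl3, at the peptidyl transferase centre, rose by 0.085 ± 0.024 and Rpl10, which joins the large subunit late, by 0.057 ± 0.023, but both were at or under 0 with upper-quartile factors (-0.0022 and -0.030), and Rpl10 also with library totals alone (-0.019) and with limma on FPKM (-0.019). The call on Rpl10 was lost in 4 of 6 fits without 1 library (adjusted p up to 0.121).

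The 11 members that did not pass included Rpl26, Rpl31, Rpl32l, Rpl39, Rplp2, Rps18, Rps20, Rps27, Rps28 and Rps29. Some had wide errors, which come from a fit over all 12 libraries: Rps18 had a log2 fold change of 0.15 ± 0.085 and Rpl26 of 0.15 ± 0.088. Within the groups compared Rps18 had 285 ± 10.9 CPM in OE_CM and 257 ± 8.63 CPM in VEC_CM (mean and SD). In Rps18, Rpl26, Rplp2, Rps20 and Rps29 every OE_CM library was above every VEC_CM library, although none passed. Others were close to 0 with a narrow error, above all Rpl39, which lines the exit tunnel. Rpl39 had 261, 254 and 249 CPM in OE_CM, against 246, 258 and 246 CPM in VEC_CM. These groups overlapped, and the log2 fold change was 0.026 ± 0.034 (adjusted p = 0.537).

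**Figure D2:**
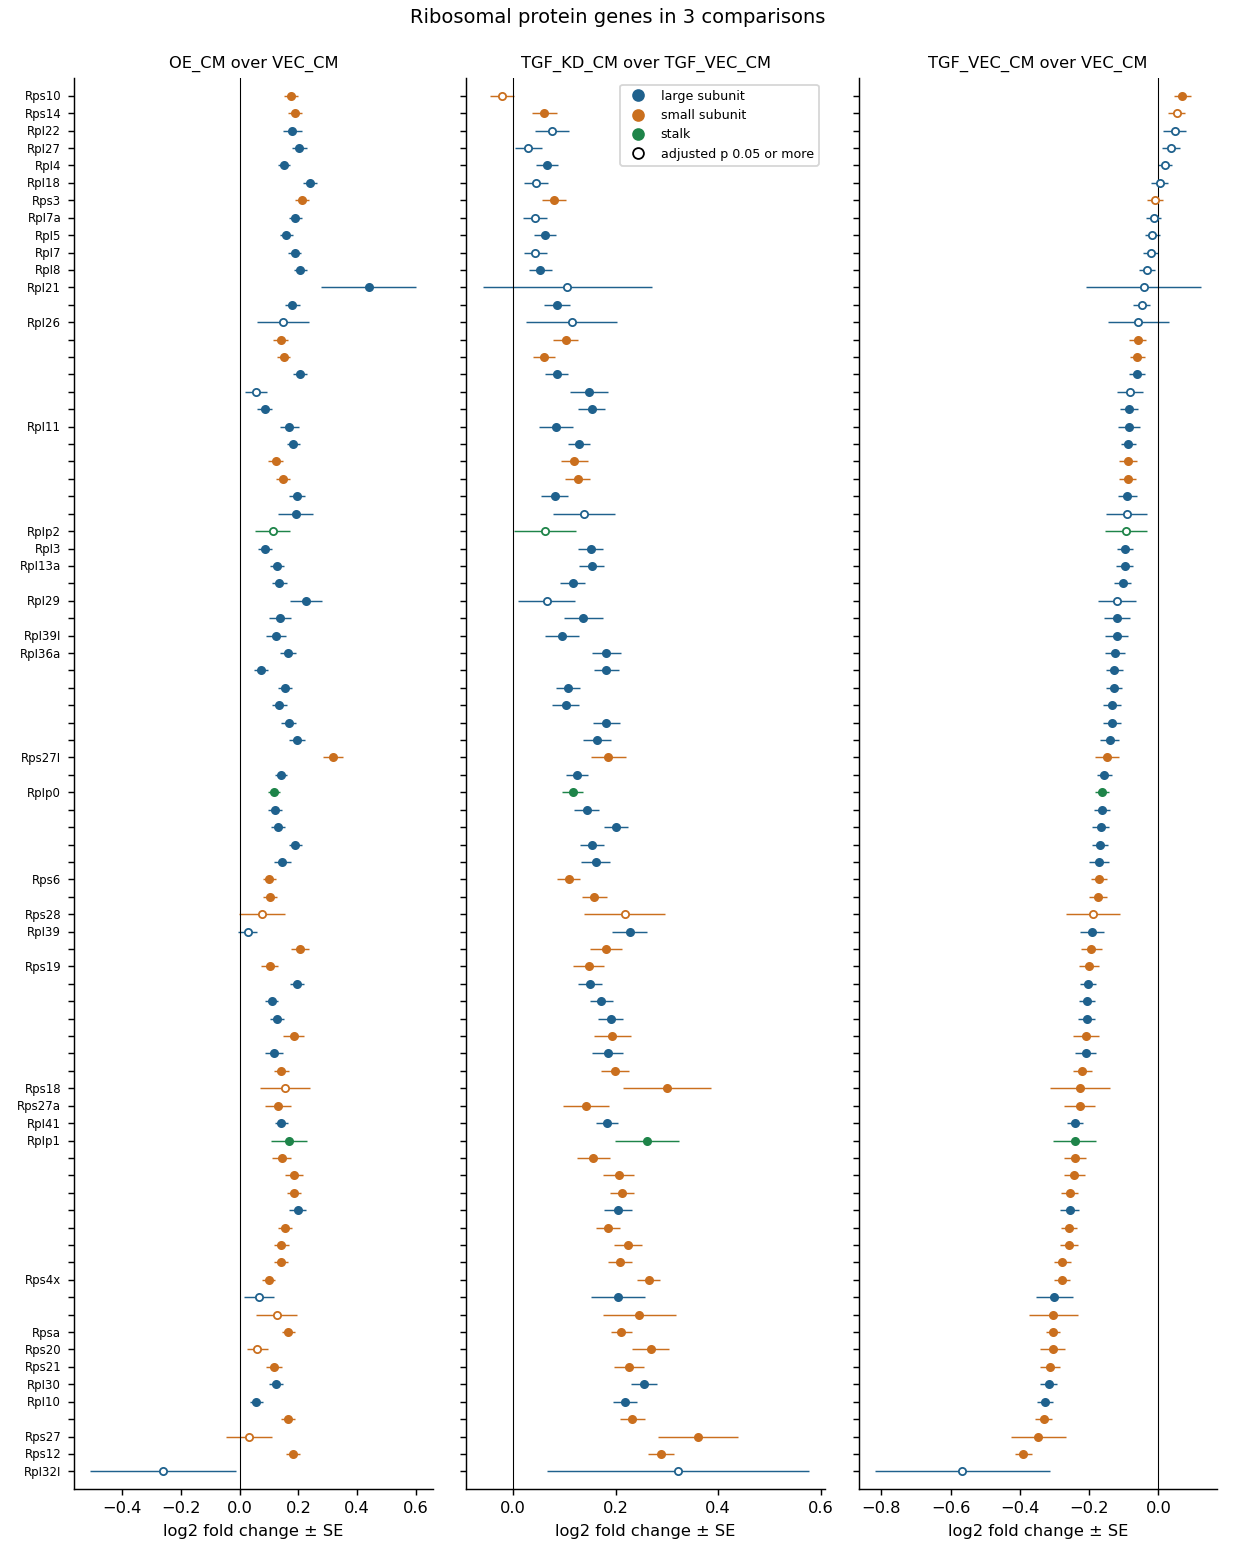
Log2 fold change of each of the 80 ribosomal protein genes (ordered by the right panel; only members described in the text are named on the axis) in 3 comparisons, with SE bars; colours give the subunit and open points did not reach an adjusted p under 0.05. Nearly all points are right of 0 in the first and second panels and left of it in the third, where Rps10 alone is called higher; the horizontal scales of the panels differ.

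Medium of adipocytes with inhibited miR-548ay was compared with vector medium, both with TGF-beta1. Here too the members were higher: 67 of 80 passed as higher and none as lower, with a median log2 fold change of 0.15 (1.11-fold), and 62 lay wholly above in TGF_KD_CM. Among all genes 23% were called higher and 20.2% lower, 26.2% lay wholly above and 24.7% wholly below. The 351 other strongly expressed genes were 33.9% higher and 33.3% lower, with a median of -0.0032. Small-subunit genes led, with 29 of 31 higher and a median of 0.19, against 36 of 46 and 0.14 in the large subunit.

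TGF_KD_CM replicate 1 had the lowest share and replicate 2 the highest. Without replicate 1, 71 members were called higher, with a median of 0.17, and without replicate 2, 52 members, with a median of 0.12; in both none was called lower. Without TGF_VEC_CM replicate 2 the count was also 52.

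Rps27, a zinc-finger protein of the small subunit (chromosome 3, 90212667 to 90213648, NCBI gene 57294), had the largest rise. Rps27 had 354, 449.9 and 394 CPM in TGF_KD_CM, against 323, 307 and 303 CPM in TGF_VEC_CM. The TGF_KD_CM libraries lay above all TGF_VEC_CM libraries but were far from each other (log2 fold change 0.36 ± 0.078; edgeR adjusted p = 0.00531). Rps12, another small-subunit protein (chromosome 10, 23785183 to 23787383, NCBI gene 20042), rose nearly as far with much less spread. Rps12 had 468, 487 and 490.2 CPM in TGF_KD_CM, against 399, 378 and 406 CPM in TGF_VEC_CM. No library of one group reached the other (log2 fold change 0.29 ± 0.025; edgeR adjusted p = 2.81e-15).

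Rps20, which sits in the head of the small subunit, rose by 0.27 ± 0.036 and Rps4x, whose gene is on the X chromosome, by 0.26 ± 0.022. Rps18, which touches the peptidyl site from the head, had a log2 fold change of 0.30 ± 0.086, and that call was lost in 4 of 6 fits without 1 library (adjusted p up to 0.0869). Of the stalk genes Rplp1 rose by 0.26 ± 0.062 and Rplp0 by 0.12 ± 0.020. Rplp2 did not pass, with 512, 624 and 549 CPM in TGF_KD_CM against 539, 529 and 547 CPM in TGF_VEC_CM; its log2 fold change was 0.11 without TGF_KD_CM replicate 1 (adjusted p = 0.0243) and -0.033 without replicate 2 (adjusted p = 0.344). Rpl5 and Rpl11, the 5S pair, rose by only 0.062 ± 0.021 and 0.084 ± 0.033, and both calls were lost in most fits without 1 library, 5 of 6 for Rpl5 and 4 of 6 for Rpl11, with adjusted p up to 0.258 and 0.423. Rpsa rose by 0.21 ± 0.021, Rpl41 by 0.18 ± 0.022, Rpl13a by 0.15 ± 0.024, Rps19 by 0.15 ± 0.030 and Rps6 by 0.11 ± 0.022, while the rise of Rps27a, 0.14 ± 0.045, was lost in 5 of 6 fits (adjusted p up to 0.0935).

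The 13 members that did not pass were Rpl7, Rpl7a, Rpl18, Rpl21, Rpl22, Rpl26, Rpl27, Rpl29, Rpl32l, Rpl36, Rplp2, Rps10 and Rps28. Rps10, a protein at the entry of the messenger that is marked with ubiquitin when ribosomes collide, was the 1 member with a log2 fold change below 0 (-0.022 ± 0.024; adjusted p = 0.485). Rps10 had 485, 476 and 496 CPM in TGF_KD_CM, against 496, 481 and 502 CPM in TGF_VEC_CM. Its groups overlapped.

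TGF_VEC_CM was compared with VEC_CM, the same medium with and without TGF-beta1. Ribosomal protein genes were lower with TGF-beta1: 60 of 80 fell, 1 rose and 19 did not pass, with a median log2 fold change of -0.16 (0.895-fold). In 65 members the TGF_VEC_CM libraries lay wholly below, and in 2, Rps10 and Rpl27, wholly above. Among all genes 28.9% were called higher and 29.4% lower, 31.3% lay wholly above and 31.5% wholly below, and the 351 other strongly expressed genes had a median of -0.0018. Of the small-subunit genes 27 of 31 fell, with a median of -0.23, and of the large-subunit genes 31 of 46, with a median of -0.12.

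Rps12 fell furthest among the called members. Rps12 had 399, 378 and 406 CPM in TGF_VEC_CM, against 506, 524 and 521 CPM in VEC_CM. The groups were well apart (log2 fold change -0.39 ± 0.025; edgeR adjusted p = 1.94e-21). Rps27 fell by 0.35 ± 0.079, Rpl10 by 0.33 ± 0.023, Rpl30, a small protein of the large subunit, by 0.32 ± 0.025 and Rps21 by 0.31 ± 0.029 on the log2 scale. Rpl10 had 733, 717 and 722 CPM in TGF_VEC_CM, against 904, 907 and 916 CPM in VEC_CM. Every TGF_VEC_CM library of Rpl10 was below every VEC_CM library.

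Rps10 was the member that rose (chromosome 17, 27630415 to 27635244, NCBI gene 67097). Rps10 had 496, 481 and 502 CPM in TGF_VEC_CM, against 469, 469 and 471 CPM in VEC_CM. The VEC_CM values were very close together and all TGF_VEC_CM values lay above them (log2 fold change 0.069 ± 0.024; edgeR adjusted p = 0.0102). Without the filter on low counts the rise was 0.050 and did not pass (adjusted p = 0.113). The other members without a call included well-measured ones near 0: Rpl4, a long protein of the exit tunnel, at 0.019 ± 0.021, Rpl18 at 0.0031 ± 0.024, Rps3 at -0.0099 ± 0.024, Rpl7a at -0.014 ± 0.023, Rpl5 at -0.018 ± 0.022 and Rpl7 at -0.023 ± 0.022. Rplp0 fell by 0.16 ± 0.020, Rplp1 by 0.24 ± 0.062, Rps6 by 0.17 ± 0.022, Rps19 by 0.20 ± 0.030, Rpsa by 0.30 ± 0.021, Rpl41 by 0.24 ± 0.022, Rpl13a by 0.098 ± 0.025 and Rps27a, a fusion with ubiquitin, by 0.23 ± 0.045.

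Between the 3 comparisons 54 members were called higher in OE_CM, higher in TGF_KD_CM and lower in TGF_VEC_CM, and 4 (Rpl26, Rpl32l, Rplp2 and Rps28) were called in none. The shares of all genes with these patterns were not counted, so the counts only describe the members. These comparisons share libraries: VEC_CM stands in the OE_CM and the TGF_VEC_CM comparison, and TGF_VEC_CM in the TGF_KD_CM comparison, so its level enters both.

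**Figure D3:**
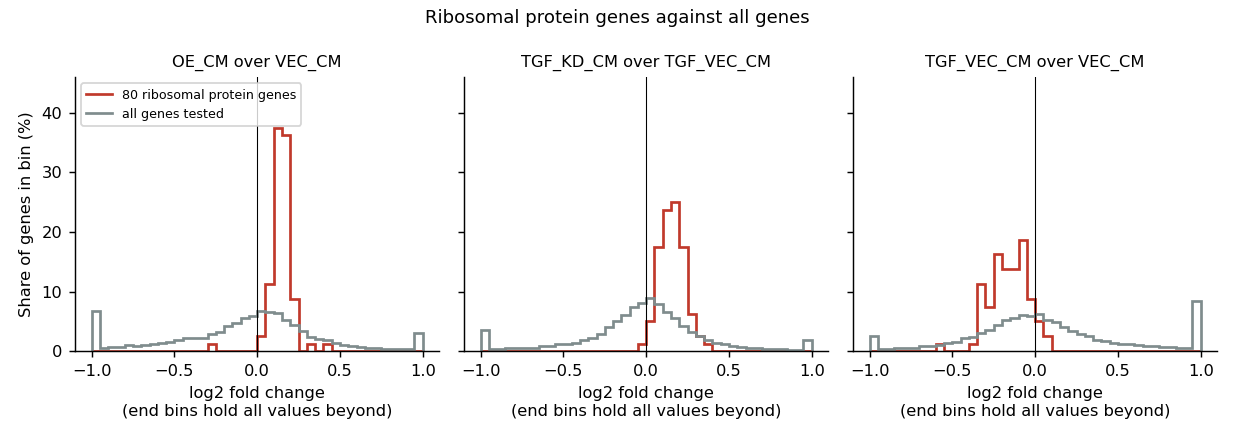
Distribution of log2 fold changes in bins of 0.05, as percent of the 80 ribosomal protein genes and of all genes tested, for 3 comparisons; the end bins hold all values beyond. The ribosomal protein genes form a narrow peak with medians of 0.15, 0.15 and -0.16, while all genes are centred near 0 with wide tails.

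Members were next set against their own family by scaling each library to the summed counts of the 80 members, which removes the common shift. In OE_CM against VEC_CM 4 members were higher relative to it (Rps27l, Rpl18, Rps3 and Rpl8) and 7 lower (Rpl39, Rpl31, Rpl10, Rps20, Rpl28 and Rpl3 among them), against 14.3% and 42.2% of all genes on that scale. In TGF_KD_CM against TGF_VEC_CM 16 were higher and 12 lower (all genes 9.67% and 41.5%), and in TGF_VEC_CM against VEC_CM 21 were higher and 21 lower (all genes 45.2% and 14.8%). Relative to the family, 15 of 31 small-subunit genes were lower and 7 higher in TGF_VEC_CM, while 14 of 46 large-subunit genes were higher and 5 lower. Leaving out 1 library moved these counts to 2 to 4 higher and 3 to 8 lower in OE_CM, 9 to 17 and 10 to 15 in TGF_KD_CM and 16 to 18 and 18 to 20 in TGF_VEC_CM; the lowest TGF_KD_CM count was without TGF_VEC_CM replicate 3. In TGF_VEC_CM Rps12 fell by 0.24 ± 0.029 relative to the family, and Rps10 rose by 0.22 ± 0.029 and Rps14 by 0.21 ± 0.029.

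The balance of the messengers for the subunits, which is not that of the subunits themselves, was taken as 1 value per library. This value is the ratio of the summed small-subunit counts to those of the large subunit, leaving out the stalk genes. It was 0.678 ± 0.001 in OE_CM and 0.679 ± 0.004 in VEC_CM, overlapping (exact permutation p = 0.8). In TGF_KD_CM it was 0.666 ± 0.005 and in TGF_VEC_CM 0.648 ± 0.003 (SD, n = 3 each), with no overlap between TGF_KD_CM and TGF_VEC_CM or between TGF_VEC_CM and VEC_CM (exact permutation p = 0.1 for both, the smallest possible).

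Gene length moved with these results, and its part in them was not tested. Over the 80 members the log2 fold change had a Spearman rho with length of 0.20 in OE_CM against VEC_CM, -0.34 in TGF_KD_CM against TGF_VEC_CM and 0.33 in TGF_VEC_CM against VEC_CM. The 51 members under 1 kb had medians of 0.14, 0.18 and -0.19 in these comparisons, and the 29 longer ones 0.16, 0.12 and -0.089. Among genes outside the family with at least 200 CPM, 31 were under 1 kb, such as S100a4, Fth1, Lgals1, Mif and Cox6c and the mitochondrial ND1, a division chosen after the data were seen. Their medians were -0.0078 in OE_CM, 0.14 in TGF_KD_CM, where 25 of 31 lay above 0, and -0.14 in TGF_VEC_CM, where 24 of 31 lay below 0. The 753 such genes of 2 kb or more had medians of 0.097, 0.0041 and -0.0065.

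The effects of the 2 media were then compared member by member, as the OE_CM effect (over VEC_CM) minus the TGF_KD_CM effect (over TGF_VEC_CM). Between these 2 effects 60 members were called higher in both, 9 in OE_CM and not in TGF_KD_CM, 7 in TGF_KD_CM and not in OE_CM, and 4 in neither. All genes were not counted in this way. The difference itself passed in 24 members, with 15 higher for OE_CM and 9 lower, against 25.6% and 26.8% of all genes, and its median was -0.0096. Relative to the family total 15 were higher and 11 lower (all genes 24.6% and 25.8%). This split depended on the scaling: with upper-quartile factors 6 were higher and 29 lower, with library totals 9 and 24, and without TGF_KD_CM replicate 1, 14 were higher and 18 lower.

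Across members the sizes of the 2 effects, which share no library, tended to run in opposite order. Over the 80 members they had a Pearson r of -0.43 and a Spearman rho of -0.40. The same correlation was not computed over other genes, so it is not shown to be particular to the members. Without Rpl32l and Rpl21, the 2 imprecise members at the left and right ends, r was -0.39 and rho -0.36, over 78 members. Both log2 fold changes were above 0 in 78 of 80, a count that was not made over all genes. Members with a stronger OE_CM effect were Rps10 (0.20 ± 0.034), Rpl18 (0.19 ± 0.033), Rpl27 (0.17 ± 0.037), Rpl8 (0.15 ± 0.032), Rpl7a (0.15 ± 0.032) and Rpl7 (0.14 ± 0.032). Those with a stronger TGF_KD_CM effect were Rps27 (-0.33 ± 0.11), Rps20 (-0.21 ± 0.050), Rpl39 (-0.20 ± 0.048), Rps4x (-0.17 ± 0.032), Rpl10 (-0.16 ± 0.033) and Rpl30 (-0.13 ± 0.035). The call on Rps27 was lost in 8 of 12 fits that left out 1 library, with adjusted p up to 0.0943. Rpl27, a small protein of the large subunit, shows such a difference. Rpl27 had 474, 439 and 449 CPM in OE_CM, against 388, 397 and 397 CPM in VEC_CM. Rpl27 had 425, 409 and 404 CPM in TGF_KD_CM, against 398, 402 and 414 CPM in TGF_VEC_CM. The OE_CM libraries stood apart from the VEC_CM libraries, while the TGF_KD_CM and TGF_VEC_CM libraries overlapped.

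**Figure D4:**
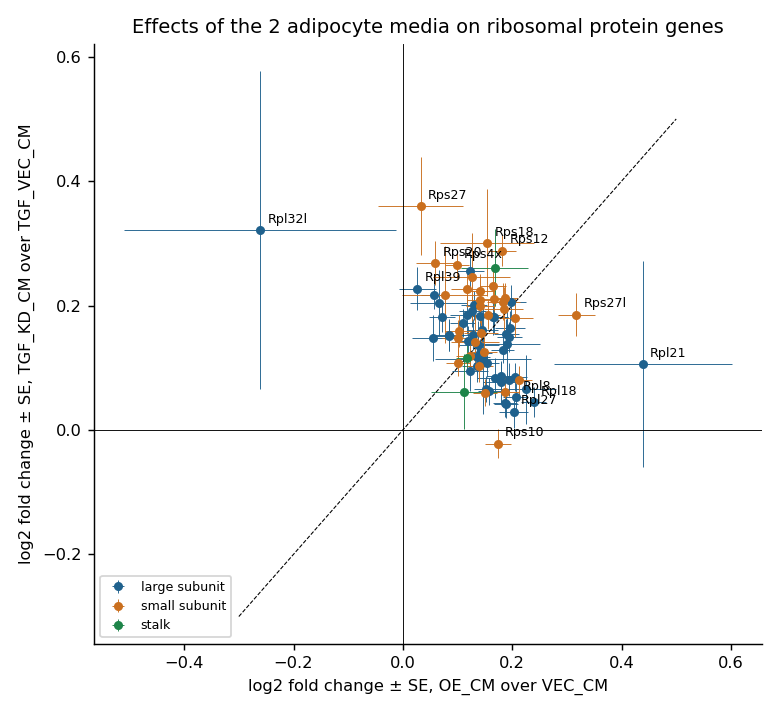
Each point is 1 of 80 ribosomal protein genes: horizontal, log2 fold change of OE_CM over VEC_CM; vertical, that of TGF_KD_CM over TGF_VEC_CM; bars are SE, colours the subunit, and the dashed line marks equal effects. In the upper right lie 78 of the 80; Rps10 is below 0 on the vertical axis, and Rpl32l, with wide error bars, is left of 0.

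Paralogue pairs could be told apart in part. Rps27l rose in OE_CM (0.32 ± 0.034) where Rps27 did not pass (0.033 ± 0.078), and in TGF_KD_CM both rose (0.19 ± 0.034 and 0.36 ± 0.078); whether the 2 genes differ was not tested. Rpl39l, a relative of Rpl39 best known from testis, rose by 0.12 ± 0.033 in OE_CM, against 0.026 ± 0.034 for Rpl39, and it shared none of its stretches of 50 bases with another gene. Rpl22 rose by 0.18 ± 0.033 in OE_CM and was not called in TGF_KD_CM (0.077 ± 0.033). Its paralogue Rpl22l1, outside the symbol rule, was not called in OE_CM (0.11 ± 0.083) and rose in TGF_KD_CM (0.30 ± 0.084). That call was lost in 3 of 6 fits without 1 library (adjusted p up to 0.0635). The OE_CM effect minus the TGF_KD_CM effect did not pass in Rpl22 (0.10; edgeR adjusted p = 0.0613) or in Rpl22l1 (-0.19; adjusted p = 0.214). No pair of paralogues was tested against each other. Rpl36a rose by 0.16 ± 0.029 in OE_CM and by 0.18 ± 0.029 in TGF_KD_CM, and Rpl36al by 0.19 ± 0.028 in OE_CM, with -0.0083 ± 0.029 in TGF_KD_CM.

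**Figure D5:**
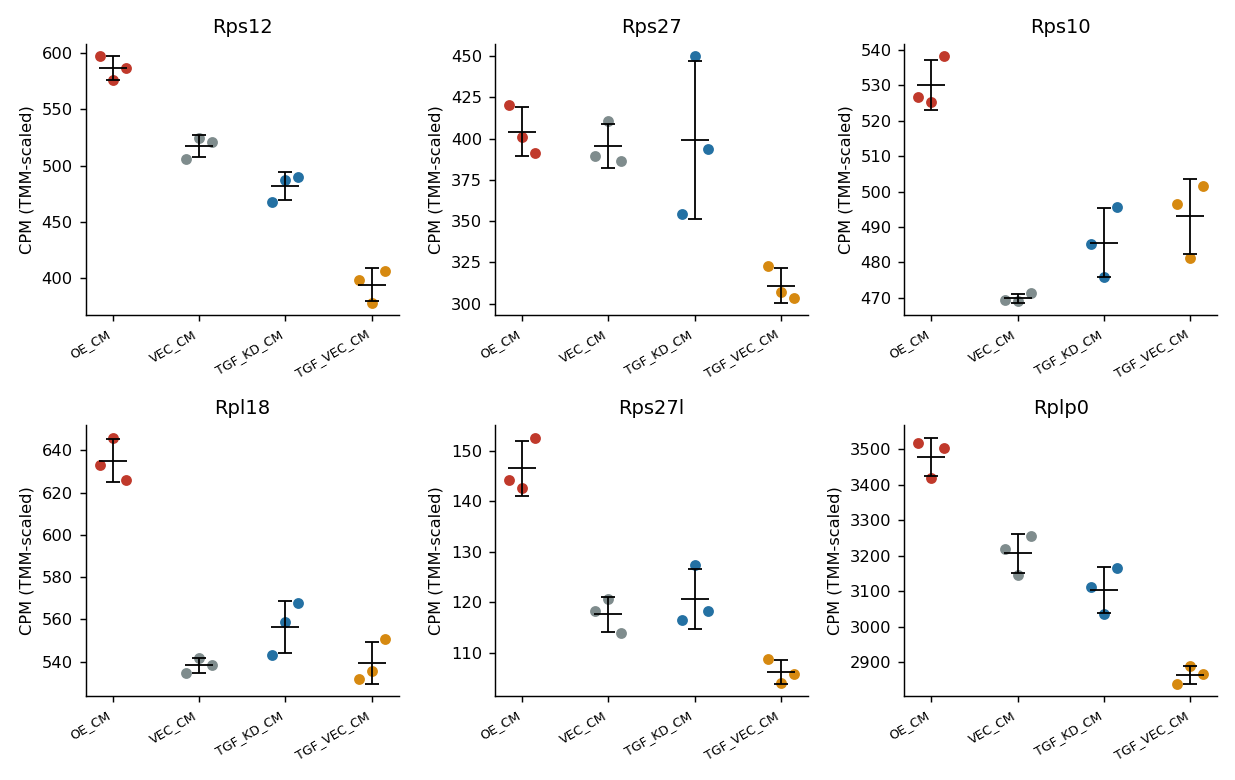
TMM-scaled CPM of 6 ribosomal protein genes in each of the 12 libraries, by group; marks and bars give mean and SD of 3 libraries, and axes do not start at 0. Rps12 and Rplp0 step down from OE_CM to TGF_VEC_CM, Rps10 is lowest in VEC_CM, Rpl18 and Rps27l are highest in OE_CM, and Rps27 spreads widely in TGF_KD_CM.

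A list of 11 ribosomal protein symbols outside the members was also followed. It holds Rpl3l, left out for its level, and the pseudogene symbol Rpl34-ps1, which is counted again among the pseudogenes below. The symbol rule leaves out the others. Of the 11, 7 rose and none fell in OE_CM (median log2 fold change 0.13), 7 rose and 1 fell in TGF_KD_CM (0.10), and 2 rose and 8 fell in TGF_VEC_CM (-0.15). Fau, whose product carries a small-subunit protein fused to a ubiquitin-like one, rose by 0.12 ± 0.026 in OE_CM and 0.22 ± 0.027 in TGF_KD_CM and fell by 0.20 ± 0.027 in TGF_VEC_CM. Rps3a1 was not called in OE_CM (0.13 ± 0.061), rose by 0.19 ± 0.061 in TGF_KD_CM and fell by 0.20 ± 0.061 in TGF_VEC_CM, both calls being lost in 4 of 6 fits without 1 library. Rack1, the signalling scaffold on the small subunit, rose in all 3, against the members' direction in TGF_VEC_CM, by 0.20 ± 0.021, 0.066 ± 0.021 and 0.061 ± 0.021, the last 2 calls being lost in 3 and in 1 of 6 fits and, for TGF_KD_CM, with upper-quartile factors (0.042; adjusted p = 0.0908). Rpl7l1, named after its values were seen, went against the members in both TGF-beta1 comparisons: it rose by 0.42 ± 0.028 in OE_CM, fell by 0.28 ± 0.027 in TGF_KD_CM and rose by 0.38 ± 0.028 in TGF_VEC_CM.

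Genes that build ribosomes rose in OE_CM by a larger median than the ribosomal proteins and mostly fell in TGF_KD_CM. Beside the counts of this list and those below, 28.4% of all genes were called higher and 25.7% lower in OE_CM. In TGF_KD_CM these shares were 23% and 20.2%, and in TGF_VEC_CM 28.9% and 29.4%. Of 41 ribosome biogenesis factors 41 rose in OE_CM, with a median log2 fold change of 0.59 (all genes -0.0081). In TGF_KD_CM 3 rose and 26 fell (median -0.13), and in TGF_VEC_CM 19 rose and 7 fell (median 0.048). Nucleolin, Ncl, the major nucleolar RNA-binding protein, showed this. Ncl had 2539, 2561 and 2479 CPM in OE_CM, against 1740.1, 1682 and 1659 CPM in VEC_CM. Ncl had 1669, 1717 and 1633 CPM in TGF_KD_CM, against 1820.3, 1772 and 1788 CPM in TGF_VEC_CM. The OE_CM libraries were far above VEC_CM (log2 fold change 0.58 ± 0.022; edgeR adjusted p = 1.09e-33), and the log2 fold change of TGF_KD_CM over TGF_VEC_CM was -0.10 ± 0.022 (adjusted p = 0.000103). Nolc1, a nucleolar phosphoprotein, rose by 0.69 ± 0.029 in OE_CM, fell by 0.38 ± 0.030 in TGF_KD_CM and rose by 0.39 ± 0.030 in TGF_VEC_CM. Npm1, a nucleolar chaperone in this list, also stands among the TOP genes described next. Of 16 genes of RNA polymerase I and its factors, which transcribe the ribosomal RNA, 13 rose and none fell in OE_CM, 3 rose and 5 fell in TGF_KD_CM and 6 rose and 4 fell in TGF_VEC_CM.

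Messengers that share the TOP start without coding for ribosomal proteins were mixed. Of 21 such genes, mostly translation factors, 17 rose and 1 fell in OE_CM (median 0.20), 7 rose and 3 fell in TGF_KD_CM (median 0.00024), and 6 rose and 8 fell in TGF_VEC_CM (median 0.016). Eef1a1, the elongation factor that brings transfer RNA to the ribosome, moved in the direction of most ribosomal proteins in the TGF_KD_CM and TGF_VEC_CM comparisons. Eef1a1 had 9269.7, 9488 and 9391 CPM in TGF_KD_CM, against 7828, 7722 and 7992 CPM in TGF_VEC_CM. Eef1a1 had 7828, 7722 and 7992 CPM in TGF_VEC_CM, against 9976, 9998 and 10081 CPM in VEC_CM. TGF_VEC_CM lay below both (log2 fold change 0.26 ± 0.018 for TGF_KD_CM over TGF_VEC_CM and -0.35 ± 0.018 for TGF_VEC_CM over VEC_CM). Eef1b2, its exchange factor, rose by 0.28 ± 0.026 in TGF_KD_CM and fell by 0.37 ± 0.026 in TGF_VEC_CM. Hnrnpa1, a splicing factor with a TOP messenger, did the reverse, falling by 0.19 ± 0.024 in TGF_KD_CM and rising by 0.32 ± 0.025 in TGF_VEC_CM.

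Other machines of the cell were set beside the family. All genes had 28.4% higher and 25.7% lower in OE_CM. They had 23% and 20.2% in TGF_KD_CM, and 28.9% and 29.4% in TGF_VEC_CM. Mitochondrial ribosomal protein genes numbered 78, of which 45 rose and 3 fell in OE_CM (median 0.17), 15 rose and 14 fell in TGF_KD_CM (median -0.0063), and 7 rose and 35 fell in TGF_VEC_CM (median -0.10). Of 37 proteasome genes 33 rose and 2 fell in OE_CM (median 0.22), 8 rose and 5 fell in TGF_KD_CM, and 6 rose and 20 fell in TGF_VEC_CM. Import factors, ribosomal protein chaperones and p53 sensors (14 genes) had 10 rises and no fall in OE_CM, 5 and 4 in TGF_KD_CM and 5 and 5 in TGF_VEC_CM. Genes of ribosome rescue and quality control (18) had 13 rises and 1 fall, 4 and 9, and 8 and 3. Of 8 tested symbols of ribosomal pseudogenes 3 rose in OE_CM and 3 in TGF_KD_CM, and 1 fell in TGF_VEC_CM.

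Regulators of ribosomal protein synthesis had no common direction: of 23, 10 rose and 3 fell in OE_CM, 6 rose and 9 fell in TGF_KD_CM, and 8 rose and 10 fell in TGF_VEC_CM. Myc, the transcription factor that drives ribosome production, changed in all 3 comparisons. Myc had 178, 198 and 188 CPM in OE_CM, against 85.9, 80.04 and 87.0 CPM in VEC_CM. Myc had 96.2, 95.8 and 98.9 CPM in TGF_KD_CM, against 122, 115 and 127 CPM in TGF_VEC_CM. It rose by 1.15 ± 0.037 in OE_CM over VEC_CM and by 0.52 ± 0.038 in TGF_VEC_CM over VEC_CM, and fell by 0.32 ± 0.037 in TGF_KD_CM over TGF_VEC_CM. The ribosomal protein genes had the direction of Myc in the OE_CM comparison and the opposite direction in the other 2. Ddit4, an inhibitor of mTOR, rose by 1.84 ± 0.062 in OE_CM and 1.21 ± 0.064 in TGF_VEC_CM and fell by 0.23 ± 0.059 in TGF_KD_CM. Larp1, the protein that binds TOP messengers, rose by 0.45 ± 0.025 in OE_CM and 0.17 ± 0.025 in TGF_VEC_CM and fell by 0.13 ± 0.025 in TGF_KD_CM. Eif4ebp1, a translation repressor under mTOR, rose by 0.37 ± 0.035 in OE_CM and 0.17 ± 0.035 in TGF_VEC_CM and had -0.043 ± 0.035 in TGF_KD_CM (adjusted p = 0.342).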

How the data were processed

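Messenger RNA libraries of 12 samples in 4 groups of 3 were analysed from a table of raw counts per gene with FPKM beside them, both made and deposited by the authors. The submitters' processing notes name GRCm38 and mm10, and the labels' protocols a SMARTER mRNA kit with 1.3 µg of RNA; the sources used here do not name an aligner, counter or annotation, nor say how strand and reads with several matches were treated. The FPKM values deposited by the authors equal counts per column total and per length, with 1 length per gene.

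Computed here: edgeR 4.0.16 in R 4.3.3 (filterByExpr, TMM factors from 0.947 to 1.04, robust quasi-likelihood F test) was fitted to all 12 libraries with a mean per group, on the 14400 genes that passed the filter of 24619; p-values were adjusted by Benjamini and Hochberg over all of them, with a threshold of 0.05. The common biological coefficient of variation was 0.0341. SE is the absolute log2 fold change divided by the square root of F. CPM in the text are TMM-scaled except where the member rule is stated. Shares of counts were tested by exact two-sided permutation. The procedure was tested on simulated data.

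The members and gene lists were chosen with earlier results of these data known. Results of some genes are not reported here. Named in each comparison were the 6 members with the largest called rise and fall, and fixed groups (the stalk, the 5S pair, paralogues and known regulators); Rpl4, Rpl7, Rpl7a, Rps14, Rps18 and Rpl26, where named outside that rule, were picked after their values were seen. Alternatives were other scalings, filters, DESeq2 1.42.0, limma 3.58.1 on log2(FPKM + 1), a replicate block, and leaving out each library. Intervals and errors cover the spread between libraries only.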

Additional observations from a re-analysis of the deposited data

Results flagged for a closer look

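For 24 of 80 members (30%) the effect of the OE_CM medium over VEC_CM differed from that of the TGF_KD_CM medium over TGF_VEC_CM in a direct test of the difference (edgeR, adjusted over all genes), against 52.5% of all 14400 genes. The split was 15 higher and 9 lower, and 6 higher and 29 lower with upper-quartile factors. The 2 effects come from different parts of the study, so the medium, TGF-beta1 and any batch cannot be told apart in them. The 6 called members at each end are given. The difference, OE_CM effect minus TGF_KD_CM effect on the log2 scale, was 0.20 ± 0.034 for Rps10 (adjusted p = 1.02e-06), 0.19 ± 0.033 for Rpl18 (9.93e-07), 0.17 ± 0.037 for Rpl27 (4.91e-05), 0.15 ± 0.032 for Rpl8 (3.75e-05), 0.15 ± 0.032 for Rpl7a (8.02e-05) and 0.14 ± 0.032 for Rpl7 (1.00e-04). It was -0.33 ± 0.11 for Rps27 (adjusted p = 0.0348; lost in 8 of 12 fits without 1 library), -0.21 ± 0.050 for Rps20 (0.00124), -0.20 ± 0.048 for Rpl39 (0.000672), -0.17 ± 0.032 for Rps4x (7.67e-06), -0.16 ± 0.033 for Rpl10 (2.93e-05) and -0.13 ± 0.035 for Rpl30 (0.00133).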

How the results depend on the processing

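With upper-quartile factors, higher members numbered 38 in OE_CM (median 0.059) and 3 in TGF_VEC_CM (median -0.13), and the difference between effects had 6 higher and 29 lower (median -0.073). With library totals alone these were 45 (0.070), 5 (-0.12), and 9 and 24 (-0.053), with 1 lower in TGF_KD_CM and a median of 0.12 there. With the members' summed counts as library size, higher and lower numbered 4 and 7 in OE_CM, 16 and 12 in TGF_KD_CM and 21 and 21 in TGF_VEC_CM; single members were not repeated under that scaling as an alternative. limma on FPKM gave 40 higher in OE_CM (0.070), 4 in TGF_VEC_CM (-0.12), a median of 0.12 in TGF_KD_CM, and 6 higher and 20 lower for the difference (-0.054). A filter of 1 CPM gave medians of 0.13 in OE_CM and -0.14 in TGF_VEC_CM; no filter gave 0.13 and -0.18, no member higher in TGF_VEC_CM and 20 lower for the difference. Fits of only the groups compared gave a median of 0.14 in OE_CM. Members higher in TGF_VEC_CM, 1 in the result reported, numbered 2 with DESeq2 size factors, DESeq2, the 1 CPM filter, the fit of only the groups compared and the replicate block. The cause of these shifts was not tested. Between scalings all genes moved too: their median in OE_CM was -0.0081 with TMM and -0.095 with upper-quartile factors. The members' median minus that of all genes was 0.154 in OE_CM, 0.153 in TGF_KD_CM and -0.163 in TGF_VEC_CM. For the difference between effects it was 0.013. These values were the same with TMM, DESeq2 size factors, upper-quartile factors and library totals. A change of scaling moves the log2 fold changes of all genes by nearly the same amount, so this could not come out otherwise. It is no sign that the calls are free of the scaling.

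Rpl3 in OE_CM turned to -0.0022 with upper-quartile factors, and Rpl10 to -0.030 there, -0.019 with library totals and -0.019 with limma. The share of counts in TGF_VEC_CM minus that in VEC_CM was -0.432 percentage points without the 20 most abundant genes and -0.340 without the 3 members of highest count.

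Leaving out 1 library gave 63 to 67 higher and 0 to 1 lower in OE_CM (median 0.13 to 0.16), 52 to 71 and 0 to 0 in TGF_KD_CM (0.12 to 0.17), 1 to 2 and 53 to 61 in TGF_VEC_CM (-0.16 to -0.14), and 14 to 18 and 5 to 18 for the difference (-0.035 to 0.028). Share differences ran from 0.235 to 0.301, 0.345 to 0.484 and -0.409 to -0.374 percentage points.

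Deviations of libraries with the same replicate number had correlations from 0.000298 to 0.0436, and those with different numbers from -0.0394 to 0.0163. All are small, and whether the numbers mark pairs cannot be told from them. With a replicate block 65 members were higher in OE_CM and 66 in TGF_KD_CM, 59 lower in TGF_VEC_CM, and 15 and 11 for the difference. With 3 libraries a group, differences of a few percent in imprecise members such as Rpl21, Rpl26 and Rpl32l were not detectable.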
